A study of Mus musculus with 6 samples.

Results

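The undifferentiated state of the MLL1 knockdown line was compared with that of its control line, C3H10T1/2 mouse mesenchymal stem cells grown to confluence and not yet given osteogenic medium (day 0). The comparison set the shMLL1 library, from cells carrying a short hairpin RNA against Kmt2a, the gene for MLL1 (genotype label: MLL1 knockdown), against the shControl library, from cells carrying a control hairpin (genotype label: WT). Genes with 20 or more counts in at least 1 of these libraries were kept, which left 14366 of the 55401 genes in the count table, of which 29043 had at least 1 count in the series. The series also holds an NFIB knockdown line (shNFIB) at day 0, and all 3 lines after 7 days in osteogenic medium, which held β-glycerophosphate, ascorbic acid 2-phosphate and dexamethasone. Each of the 6 conditions is represented by a single library and each hairpin by a single line, so the differences at day 0 have no replicate check, and the effect of the hairpin cannot be told apart from a difference between the lines or cultures. The intervals given below are exact 95% counting intervals and cover counting error only. The knockdown lines were established in earlier work, and the sources used here do not give the number of clones or hairpins behind each of them.

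MLL1 (KMT2A) is a histone methyltransferase of the COMPASS family. With its partners WDR5, RBBP5, ASH2L, DPY30 and menin it trimethylates lysine 4 of histone H3 at promoters, and it is best known for keeping developmental regulators such as the Hox genes active. C3H10T1/2 is a mouse embryonic mesenchymal line that can be turned toward bone, fat, cartilage or muscle in culture, and in the study MLL1 was examined as the partner of the transcription factor NFIB in these cells.

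The total counts were 32662704 in shControl and 30838517 in shMLL1, and 3 counts, used here as the detection floor, correspond to 0.0939 and 0.0994 CPM (counts relative to the library's total, scaled by trimmed mean of M-values, TMM). Mesenchymal surface markers were abundant in both lines, with a summed level of 4023 CPM in shControl and 3620 CPM in shMLL1 over 18 markers, and 15 of them passed the count minimum. Of 10 epithelial markers, 6 were at 0 in each library, including Epcam, and of 12 haematopoietic markers, 3 were at 0 in shControl and 5 in shMLL1, with 1 and 3 counts for the pan-leukocyte gene Ptprc. The summed levels of the epithelial, haematopoietic, endothelial and neural marker lists lay between 9.20 and 121 CPM in shControl and between 8.25 and 108 CPM in shMLL1. Genes with a symbol of Rpl or Rps and a number, mostly ribosomal protein genes, held 5.60% of the counts in shControl and 8.36% in shMLL1. Mitochondrially encoded genes held 2.01% and 2.65%. At day 7 the order was reversed for both groups, with summed levels of 46879 and 39609 CPM for ribosomal protein genes and 68854 and 47625 CPM for mitochondrially encoded genes in shControl and shMLL1. The part of these shares in the day 0 differences was not tested.

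Kmt2a was lower in shMLL1. Its levels at day 0 were 74.7 CPM in shControl, 86.5 CPM in shNFIB and 30.9 CPM in shMLL1, and at day 7 they were 66.3, 94.0 and 34.8 CPM. Both shMLL1 libraries thus lay below the other 4. The day 0 counts of 2387 and 933 gave a log2 difference of -1.27 (-1.38 to -1.16). Among the 19 members of the list of MLL and COMPASS subunits, 2 were over 2-fold lower and none was over 2-fold higher. The median was -0.39, and 8.35% of all genes compared were over 2-fold lower. The other lower member was Men1, which encodes menin, the subunit that tethers MLL1 to chromatin, at 2141 counts in shControl and 959 in shMLL1 (-1.08, -1.19 to -0.97). The catalytic core partners stayed within 1.5-fold: Wdr5 differed by 0.00, Rbbp5 by 0.14, Ash2l by 0.00 and Dpy30 by 0.41. The paralogous methyltransferase Kmt2b differed by -0.31, Kmt2c by -0.67 and Kmt2d by -0.39. The NFI family includes NFIB, the transcription factor with which MLL1 was paired in the study. All 4 members had differences below 0, at -1.60 for Nfix, -1.10 for Nfia, -0.96 for Nfic and -0.83 for Nfib. Nfib had 3715 counts in shControl, 1115 in shNFIB and 1976 in shMLL1, so its level in the MLL1 knockdown lay between those of the other lines.

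Over the whole transcriptome, genes differed in both directions. Of the 14366 genes, 1227 were over 2-fold higher in shMLL1 (8.54%) and 1200 were over 2-fold lower (8.35%), while 64.0% lay within 1.5-fold. The median log2 difference was -0.06. The split depends on the setting, with 1375 higher and 1054 lower under DESeq2 size factors, and 672 and 816 where 20 counts were required in both libraries. The minimum was reached only in the library where the gene was high by 555 of the higher and 384 of the lower genes, which therefore had to differ. The counting interval lay wholly beyond 2-fold for 689 of the higher and 695 of the lower genes. A difference over 8-fold was found for 188 higher and 143 lower genes, and 94 of the higher and 67 of the lower genes were at or under the 3-count floor in the library where they were low. The calls differed in kind: 62.5% of the higher genes were protein-coding, against 85.8% of the lower genes and 84.1% of all genes compared. Of 1074 long noncoding genes, 250 (23.3%) were higher and 105 (9.78%) lower, and of 862 processed pseudogenes, 123 were higher and 31 lower. These shares by type include the genes that reached the minimum only in the library where they were high. Genes with 20 counts in both libraries were not split by type, so the part of the minimum in this difference was not tested. A processed pseudogene shares sequence with its parent gene, so its counts are uncertain.

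**Figure D1:**
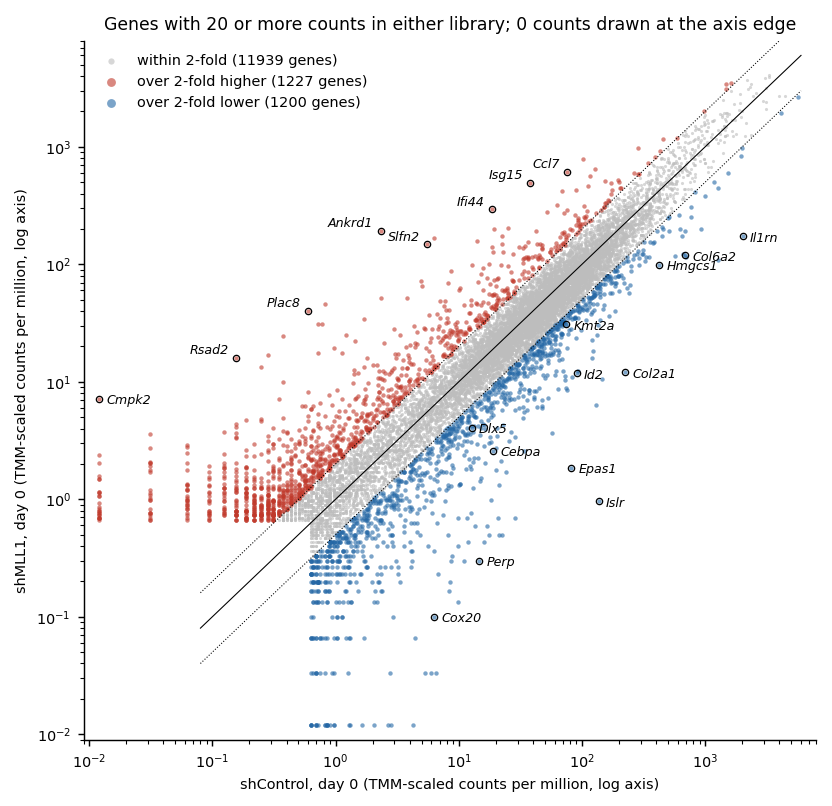
Level of each of the 14366 genes in shControl (x axis) and shMLL1 (y axis) at day 0, both in TMM-scaled CPM on log axes, with red for over 2-fold higher, blue for over 2-fold lower and grey for the rest; the solid line marks equality and the dotted lines 2-fold. The empty corner at the lower left is set by the minimum of 20 counts, and named genes such as Cmpk2, Rsad2, Ankrd1 and Isg15 lie far above the line while Islr, Epas1 and Col2a1 lie far below it.

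The gene lists separated into those whose members were mostly higher and those whose members were mostly lower. The highest medians belonged to chemokines and cytokines (1.55), interferon-stimulated genes (1.36), glycolysis and hypoxia genes (0.67) and the amino acid response driven by ATF4 (0.56). The lowest medians, among lists of 9 or more members, were those of chondrocyte genes (-1.25), limb and mesenchyme homeobox and T-box genes (-0.92), sterol biosynthesis (-0.92), Wnt signalling (-0.87) and BMP and TGF-beta signalling (-0.75). Setting the genes with 0 counts in 1 library to their bound against the floor moved none of these medians. Members that reached the count minimum only in the library where they were high made up 3 of 20 higher calls for interferon-stimulated genes, 1 of 14 for chemokines and cytokines, and 4 of 8 lower calls for Notch and Hedgehog signalling. They made up 4 of 13 lower calls for other matrix proteins, 2 of 8 for Wnt signalling, 2 of 7 for limb homeobox and T-box genes and 2 of 5 for chondrocyte genes.

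**Figure D2:**
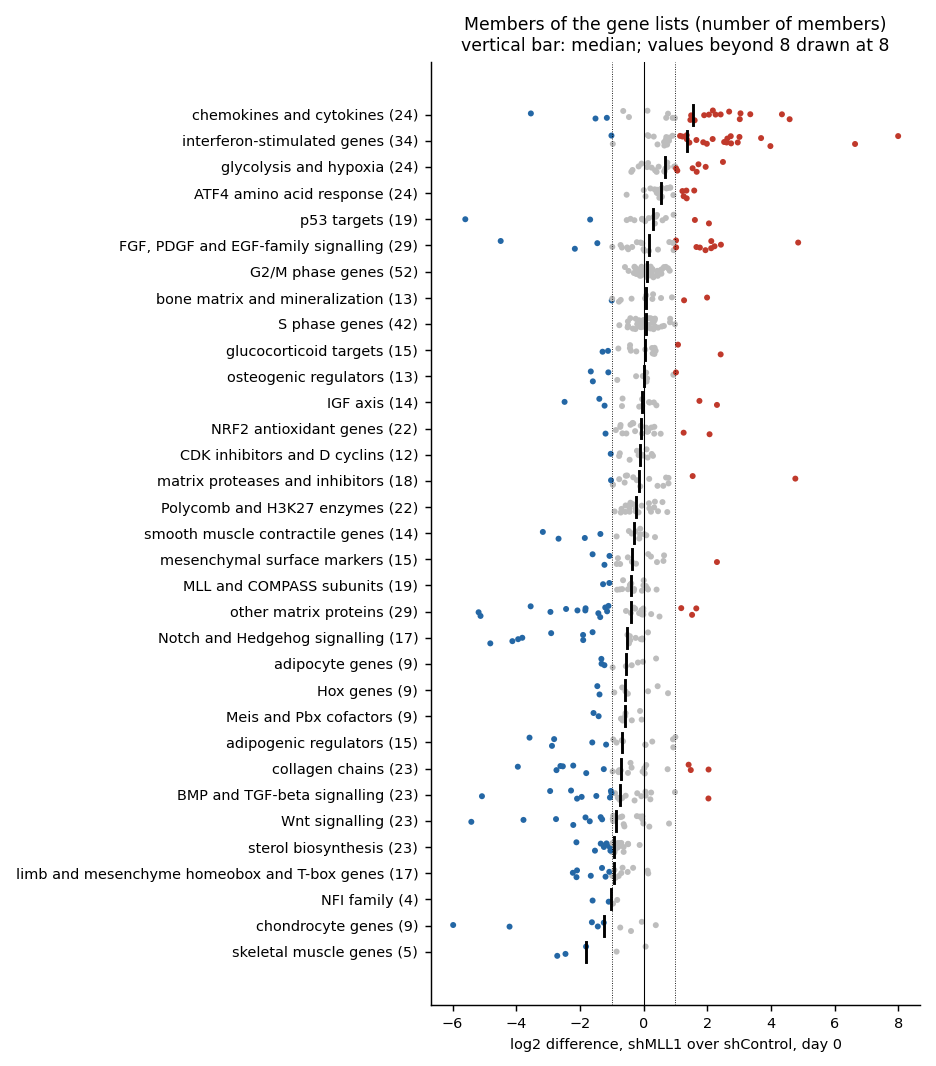
Log2 difference of shMLL1 over shControl at day 0 (x axis) for every member of the gene lists with 4 or more members, other than neural markers and the study's own targets (y axis, number of members in brackets), with the median as a black bar, dotted lines at 2-fold and the colours red for over 2-fold higher, blue for over 2-fold lower and grey for the rest. Interferon-stimulated genes and chemokines lie mostly to the right, and sterol, Wnt, BMP, homeobox and chondrocyte genes mostly to the left.

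Interferon-stimulated genes were higher in shMLL1. These genes are switched on when secreted interferon engages its receptor and a complex of transcription factors binds interferon-stimulated response elements in their promoters, and many encode antiviral effectors. Of 34 members, 20 were over 2-fold higher and 1 over 2-fold lower, against 8.54% and 8.35% of all genes, and 32 of 34 differences were above 0. To show where the response element lies when it is present, the 160 bases before the RefSeq start (GRCm38.p6) are given below for 6 of the higher members. They are written 5′ to 3′ on the gene's strand. Capitals mark matches to the core of the response element, GAAA repeated after a gap of 2 bases, or to its reverse complement. A match that overlaps an earlier one is not marked separately, as in Isg15, Oas1a, Bst2 and Gbp3, so the capitals do not show every match. The 6 members were picked for having a match. They are 6 of the 9 higher members, of 16 with a window, that do, 1 from each locus with a match before the start.
Isg15, chr4:156200819-156200978, minus strand: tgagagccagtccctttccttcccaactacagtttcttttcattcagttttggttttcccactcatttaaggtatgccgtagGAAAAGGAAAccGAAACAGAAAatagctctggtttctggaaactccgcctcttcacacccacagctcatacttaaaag
Rsad2, chr12:26456453-26456612, minus strand: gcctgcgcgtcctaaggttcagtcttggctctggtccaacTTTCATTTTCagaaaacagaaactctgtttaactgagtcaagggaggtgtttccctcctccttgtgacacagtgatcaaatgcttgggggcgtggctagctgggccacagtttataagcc
Ifit1, chr19:34640729-34640888, plus strand: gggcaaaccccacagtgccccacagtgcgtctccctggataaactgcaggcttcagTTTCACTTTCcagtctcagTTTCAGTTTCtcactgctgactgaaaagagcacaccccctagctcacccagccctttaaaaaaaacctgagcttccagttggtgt
Oas1a, chr5:120907526-120907685, minus strand: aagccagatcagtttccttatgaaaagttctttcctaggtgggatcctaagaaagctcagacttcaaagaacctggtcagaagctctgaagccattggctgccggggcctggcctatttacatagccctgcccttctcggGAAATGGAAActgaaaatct
Bst2, chr8:71537473-71537632, minus strand: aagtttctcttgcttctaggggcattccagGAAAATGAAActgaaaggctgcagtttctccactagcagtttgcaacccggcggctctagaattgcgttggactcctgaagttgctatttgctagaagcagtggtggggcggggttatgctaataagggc
Gbp3, chr3:142559884-142560043, plus strand: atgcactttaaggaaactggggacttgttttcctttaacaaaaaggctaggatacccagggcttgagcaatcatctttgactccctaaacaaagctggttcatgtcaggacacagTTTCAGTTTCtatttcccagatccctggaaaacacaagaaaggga

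Windows from 250 bases before to 50 bases after the start were searched on both strands, 1 per gene. The core was present in 14 of the 28 interferon-stimulated members with a window and in 3.49% of all 27025 windows. A match is a description of the letters and not evidence of a bound site, and the search was added after the gene values had been seen. The same check over all called genes, and that of CpG content and of the NFI site, was void, because only 559 of the 767 higher and 764 of the 1029 lower protein-coding genes had a window.

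Within the list of interferon-stimulated genes, the differences farthest beyond counting error were those of Cmpk2, Rsad2, Ifi44 and Isg15. Cmpk2, a mitochondrial nucleotide kinase, had 0 counts in shControl, 2 in shNFIB and 217 in shMLL1, at least 76.6-fold higher against the 3-count floor. Rsad2, which encodes the antiviral enzyme viperin, is the neighbour of Cmpk2 on chromosome 12, 12.8 kb away, and had 5, 0 and 485 counts in the same libraries (6.65, 5.45 to 8.31, for shMLL1 over shControl). Isg15, a ubiquitin-like protein that is conjugated to other proteins, stood at 38.1 CPM in shControl, 1.33 CPM in shNFIB and 492 CPM in shMLL1 (3.69, 3.61 to 3.78). Ifi44 stood at 18.6, 2.22 and 295 CPM (3.99, 3.87 to 4.11). Irf7, the transcription factor that amplifies interferon production, had 560 counts in shControl and 3061 in shMLL1 (2.53, 2.40 to 2.66). Usp18, the protease that removes ISG15, had 722 and 5306 counts (2.96, 2.85 to 3.07).

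For Rsad2, Isg15, Ifi44, Irf7 and Usp18 the order from low to high at day 0 was shNFIB, shControl and shMLL1. The shNFIB and shMLL1 comparisons share the shControl library. In shNFIB, 23 of the 34 members lay over 2-fold below shControl and 1 lay over 2-fold above it, against 5.56% and 4.98% of all 14366 genes. The interferon receptor gene Ifnar1 differed by -0.62 between shMLL1 and shControl. Only Ifi27, a mitochondrial membrane protein, was over 2-fold lower (-1.01, -1.08 to -0.94). Of 21 interferon genes in the table, 18 had 0 counts in both day 0 libraries. Ifnb1, which encodes interferon beta, fell below the count minimum but had 14 counts in shMLL1 and 0 in shControl, with 3 in shNFIB, and was at 0 in both lines of the day 7 pair. This was looked up after the interferon-stimulated genes had been seen.

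Clusters of neighbouring interferon-inducible genes moved with the list. The Ifi200 family, DNA sensors of the AIM2 class, lies in a block on chromosome 1 from position 173350879 to 174031810. All 7 of its genes with 20 counts in both libraries were over 2-fold higher, against 5.14% of all genes with 20 counts in both, and a further 2 reached the minimum only in shMLL1. The most abundant of them, Ifi202b, had 2021 counts in shControl and 9683 in shMLL1. Of 9 guanylate-binding protein genes, GTPases that attack intracellular pathogens, 7 were higher, with a median of 1.62. Of 4 schlafen genes with 20 counts in both libraries, 3 were higher, and Slfn2, which is not on the list above, had 178 and 4458 counts (4.73, 4.51 to 4.95). Oas1a, which encodes a sensor of double-stranded RNA, was higher by 2.75, and its relatives outside the list, Oas1g (4.49) and Oas3 (12 and 735 counts), were among the 15 higher genes farthest beyond counting error. Members of these families are similar in sequence, and reads shared between copies make single values uncertain.

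**Figure D3:**
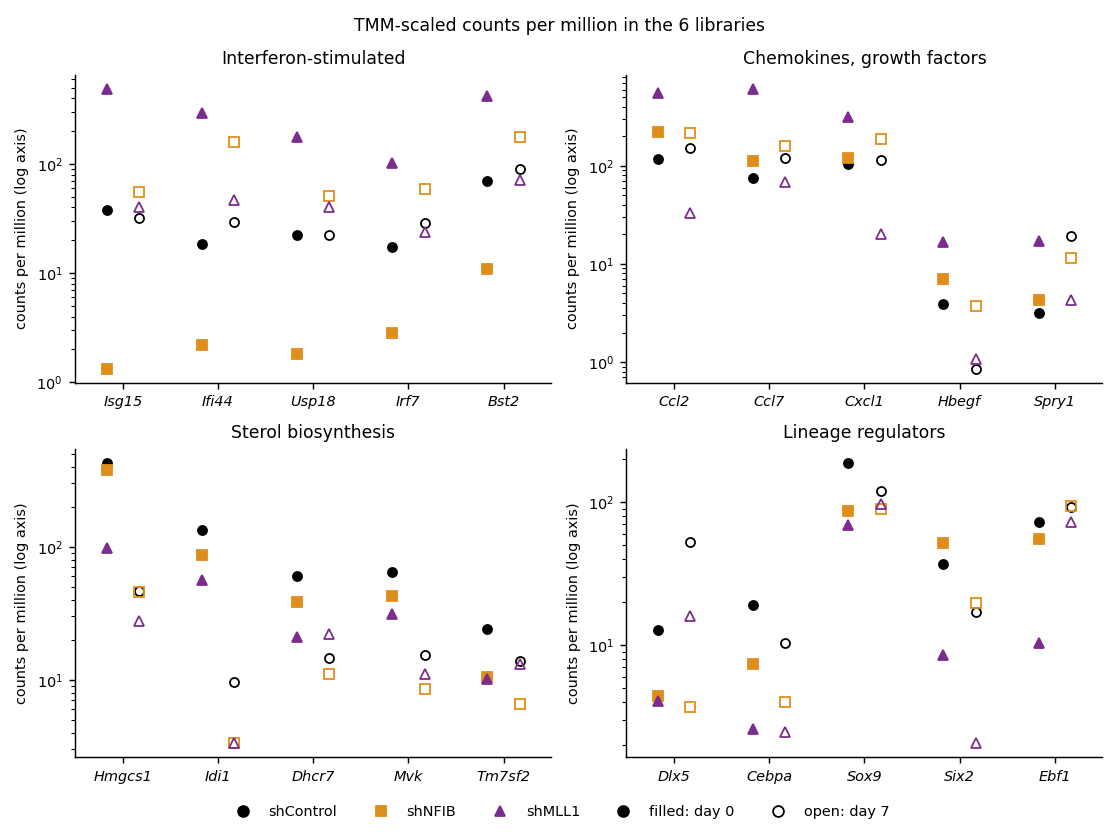
TMM-scaled CPM (log y axis) of 5 genes per panel in the 6 libraries, with circles for shControl, squares for shNFIB and triangles for shMLL1, filled for day 0 and open for day 7. The filled triangles of the interferon-stimulated genes, of Ccl2, Ccl7 and Cxcl1 and of Hbegf stand above every other point of their gene, that of Spry1 lies just under its shControl point at day 7, and those of sterol genes and lineage regulators lie below the filled circles.

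Chemokines and cytokines, the secreted proteins that attract and activate leukocytes, were the other strongly higher group. Of 24 members, 14 were over 2-fold higher and 3 over 2-fold lower, against 8.54% and 8.35% of all genes. Saa3, an acute-phase apolipoprotein, had 23 counts in shControl and 526 in shMLL1 (4.59). Ccl7, an attractant of monocytes, stood at 75.7 CPM in shControl, 113 CPM in shNFIB and 616 CPM in shMLL1 (3.02, 2.96 to 3.09). Its neighbours Ccl2 and Ccl8 were higher by 2.26 and 4.35. Il6 had 45 counts in shControl and 352 in shMLL1 (3.05, 2.60 to 3.53), and Il1rl1, the receptor for the alarmin IL-33, had 275 and 2656 (3.35, 3.17 to 3.54). The 3 lower members included some of the most abundant transcripts of the list. Il1rn, the secreted antagonist of the interleukin 1 receptor, had 64578 counts in shControl, 21044 in shNFIB and 5238 in shMLL1 (-3.54, -3.58 to -3.50). Cxcl12, the chemokine that retains haematopoietic stem cells in bone marrow, had 40953 and 13573 counts in shControl and shMLL1 (-1.51, -1.54 to -1.48), and Kitl, the ligand of KIT, 4481 and 1902 (-1.15, -1.23 to -1.08). Among leukocyte markers, Cd14 had 703 and 694 counts in shControl and shMLL1 and Cd68 62 and 66, and the other 10 haematopoietic markers had 14 counts or fewer in each.

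Of 29 members of the FGF, PDGF and EGF families and their feedback genes, 10 were over 2-fold higher and 3 over 2-fold lower. The median was 0.17, and the shares over all genes were 8.54% and 8.35%. The higher members were mostly ligands and feedback genes of receptor tyrosine kinase signalling. The EGF receptor ligand Areg had 4 counts in shControl, 2 in shNFIB and 113 in shMLL1 (4.86, 3.51 to 6.80), and Hbegf had 124, 224 and 511 (2.12, 1.84 to 2.42 over shControl). Ereg and Btc, further EGF-family genes, lie beside Areg on chromosome 5 and were also called higher. The inhibitor Spry1 had 102 counts in shControl and 520 in shMLL1 (2.43, 2.12 to 2.75), the phosphatase Dusp4 254 and 1049 (2.13, 1.93 to 2.33), and the ETS factor Etv4 73 and 324 (2.23, 1.86 to 2.62). The lower members were receptors and the ligand Hgf. Fgfr2 had 431 counts in shControl, 42 in shNFIB and 18 in shMLL1 (-4.49, -5.27 to -3.82), and Fgfr3 had 166, 158 and 35 (-2.16, -2.73 to -1.63).

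Of 24 glycolysis and hypoxia genes, 7 were over 2-fold higher and none was lower, against 8.54% and 8.35% of all genes. The median was 0.67. Bnip3, a mitophagy receptor induced by low oxygen, had 2403 counts in shControl, 1281 in shNFIB and 8780 in shMLL1 (1.95, 1.89 to 2.02). Ero1l, the oxidase that forms disulfide bonds in the endoplasmic reticulum, was higher by 1.73, hexokinase 2 (Hk2) by 1.67 and the kinase Pdk1, which holds pyruvate out of the mitochondrion, by 1.54. Epas1, which encodes HIF-2α, had 2604 counts in shControl, 3 in shNFIB and 56 in shMLL1 (-5.45, -5.87 to -5.08). In the amino acid response list, 23 of 24 differences were above 0 and 5 exceeded 2-fold, led by Ddit3 (1.59, 1.53 to 1.65) and the serine synthesis enzyme Psph (1.36, 1.28 to 1.43). Atf4 itself differed by 0.94.

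Proliferation genes showed no such difference. None of 42 S phase genes and none of 52 G2/M genes was over 2-fold in either direction, with medians of 0.07 and 0.10. Mki67 differed by -0.47 and Top2a by -0.12. Of 12 CDK inhibitors and D cyclins, the inhibitor Cdkn2c was over 2-fold lower (-1.03, -1.14 to -0.92), and Cdkn1a differed by -0.05. Among 19 targets of p53, Gadd45a (2.05) and Eda2r (1.61) were higher and Perp (-5.60) and Sesn1 (-1.68) lower. Over all genes, 8.54% were higher and 8.35% lower. Replication-dependent histone genes, looked at after the values were seen, were higher. Of 18 with 20 counts in both libraries, 10 were over 2-fold higher and none lower, and another 10 called higher reached the minimum only in shMLL1. The summed level of the 67 histone genes in the table was 205 CPM in shControl and 322 CPM in shMLL1. The linker histone gene Hist1h1d went from 140 to 600 counts (2.18, 1.91 to 2.46). These transcripts normally lack a poly(A) tail, and the libraries were made with a TruSeq RNA-seq kit whose RNA selection is not given in the sources used here.

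Some regulators of skeletal and fat lineages were lower in shMLL1 before any differentiation signal. Dlx5, a homeobox factor that starts osteoblast commitment, had 408 counts in shControl, 140 in shNFIB and 122 in shMLL1 (-1.66, -1.96 to -1.36, for shMLL1). Cebpa, a master regulator of fat cells, had 608, 232 and 78 counts (-2.88, -3.24 to -2.54). For both genes, shControl had the highest of the 3 counts. Pparg, the nuclear receptor that drives adipogenesis, had 867 counts in shControl, 1647 in shNFIB and 362 in shMLL1 (-1.18), with shMLL1 the lowest. Runx2, the main osteoblast factor, was level at 32.8 CPM in shControl, 31.4 CPM in shNFIB and 32.2 CPM in shMLL1 (-0.03, -0.15 to 0.10). Sp7, which encodes Osterix, had 1 count in each day 0 library and cannot be compared, and the muscle factor Myod1 had 2 counts in both shControl and shMLL1. Igf1, a growth factor of bone, differed by -0.14 (-0.27 to -0.01).

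Of 15 adipogenic regulators, 5 were over 2-fold lower and none higher, against 8.35% and 8.54% of all genes. The list was mixed, since 6 differences were above 0, the highest of them at 0.999, just under 2-fold. Besides Cebpa and Pparg the lower regulators were Zfp423 (-3.58), Ebf1 (-2.81) and Gata2 (-1.61), of which Zfp423 and Ebf1 mark preadipocytes. Of 13 osteogenic regulators, 3 were lower, Dlx5, Zfp521 (-1.59) and Twist2 (-1.11), and Fosl1 was at the margin of 2-fold higher (1.02, 0.62 to 1.42). The median of that list was 0.02. Of 9 chondrocyte genes, 5 were lower and none higher. Sox9, the factor that specifies cartilage, had 5962 counts in shControl, 2747 in shNFIB and 2078 in shMLL1 (-1.44, -1.51 to -1.37). Its cartilage targets Col2a1 (7124 and 363 counts in shControl and shMLL1, -4.21, -4.37 to -4.06) and Col9a1 (142 and 2 counts, -5.98, -9.13 to -4.19) were lower still.

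Of 39 Hox genes, the best known targets of MLL1, only 9, all of the Hoxa cluster, passed the count minimum, and the Hoxb, Hoxc and Hoxd clusters each summed to less than 0.2 CPM in both libraries. Hoxa3, which patterns the pharyngeal region, had 438 counts in shControl, 379 in shNFIB and 151 in shMLL1 (-1.45, -1.73 to -1.18), and Hoxa4 had 296, 198 and 107 (-1.39, -1.72 to -1.06). The other 7 lay within 2-fold, from -0.92 for Hoxa2 to 0.77 for Hoxa9, which had 13 and 21 counts. All 9 measured Meis and Pbx cofactors, which bind DNA with Hox proteins, had differences below 0, and 2 were over 2-fold lower, among them Meis3 (-1.41). Of 17 limb and mesenchyme homeobox and T-box genes, 7 were over 2-fold lower and none higher, against 8.35% and 8.54% of all genes. Six2, a progenitor factor of kidney and skeleton, stood at 1178 counts in shControl, 1621 in shNFIB and 258 in shMLL1 (-2.11, -2.31 to -1.91), and Prrx2 at 2749, 7573 and 1050 (-1.31, -1.41 to -1.20). Both genes were at their highest in shNFIB and at their lowest in shMLL1.

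Lower expression extended to 3 developmental signalling lists. In BMP and TGF-beta signalling, 9 of 23 members were over 2-fold lower and 1 was higher, against 8.35% and 8.54% of all genes. The lower members included the BMP response genes Id2 (2886 counts in shControl, 4058 in shNFIB and 356 in shMLL1, -2.94, -3.10 to -2.78), Id3 (7756, 6196 and 1720, -2.09) and Smad6 (714, 1497 and 175, -1.95), and the latent TGF-beta binding protein Ltbp2 (-2.28). The single higher member was Grem1, a secreted BMP antagonist, at 3602 counts in shControl, 6940 in shNFIB and 13977 in shMLL1 (2.04, 1.99 to 2.09). In Wnt signalling, 8 of 23 were lower and none higher. They included the secreted modulators Sfrp2 (682 and 15 counts, -5.41, -6.27 to -4.69), Frzb (-3.77) and Rspo3 (3900 and 547 counts, -2.75, -2.88 to -2.62), and the coreceptor Lrp5 (-1.83). Rspo3 amplifies Wnt signals whereas Sfrp2 and Frzb bind Wnt ligands, and Axin2, a common readout of the pathway, stayed under the minimum at 8 and 9 counts. In Notch and Hedgehog signalling, 8 of 17 were lower and none higher, among them Hey2 (93 and 3 counts), Hey1 (76 and 5), Jag2 (132 and 8) and the Hedgehog coreceptors Boc (-2.90) and Gas1 (-1.90).

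Several abundant components of the extracellular matrix were lower. Of 29 matrix proteins other than collagens, 13 were over 2-fold lower and 3 higher, against 8.35% and 8.54% of all genes. Eln, which encodes elastin, had 351 counts in shControl, 24 in shNFIB and 9 in shMLL1 (-5.18, -6.34 to -4.26), and Mfap5, a microfibril protein, had 558, 350 and 15 (-5.12, -5.98 to -4.40). Ccn3 had 40962 counts in shControl and 3307 in shMLL1 (-3.55), and fibronectin (Fn1), among the most abundant transcripts, had 181551 and 79874 (-1.10, -1.11 to -1.09). The higher members were Has2, the hyaluronan synthase (1.66), the proteoglycan Dcn (1.52) and Thbs1 (1.18). Of 23 collagen chains, 7 were lower and 3 higher. Of the chains that assemble into collagen VI, Col6a2 had 22063 and 3591 counts (-2.54) and Col6a1 29572 and 6035 (-2.21), whereas Col6a3 differed by -0.49. Col1a1 differed by 0.08 and Col3a1 by 0.02. The collagenase Mmp13 was higher by 4.77, but it reached the count minimum only in shMLL1 and so had to differ.

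Contractile and surface genes were mixed, beside 8.35% of all genes over 2-fold lower and 8.54% higher. Of 14 smooth muscle genes, 4 were over 2-fold lower, Tagln (-3.17), Lmod1 (-2.67), Actg2 (-1.85) and Myl9 (-1.36), while Acta2, the most abundant, differed by -0.25. Of the 15 mesenchymal surface markers, the receptors Pdgfra (5563 and 1731 counts, -1.60) and Pdgfrb (9973 and 4018, -1.23) and the glycoprotein Thy1 (2176 and 978, -1.07) were lower, Cd34 (41 and 192, 2.31) was higher, and Ly6a (Sca-1) differed by 0.64.

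All 23 measured genes of sterol biosynthesis had differences below 0, and 8 were over 2-fold lower, against 8.35% of all genes. The median was -0.92, with a narrow spread from -2.11 to -0.12. Genes of this pathway are driven by SREBP-2 through sterol regulatory elements. Hmgcs1, which makes HMG-CoA, stood at 426 CPM in shControl, 379 CPM in shNFIB and 98.6 CPM in shMLL1 (-2.11, -2.17 to -2.05). Dhcr7, a late reductase of the pathway, had 1917 and 628 counts in shControl and shMLL1 (-1.53, -1.66 to -1.40), and Idi1, an isomerase of its early part, 4263 and 1710 (-1.24, -1.32 to -1.15). Srebf2, which encodes SREBP-2, differed by -0.81. The lipogenic genes Fasn (9787 and 3687 counts, -1.33, -1.38 to -1.27) and Scd1 (8307 and 3344, -1.23, -1.29 to -1.17) were also lower.

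The remaining lists showed few calls, and over all genes 8.54% were higher and 8.35% lower. Of 13 bone matrix and mineralization genes, Phex (53 and 200 counts in shControl and shMLL1) and Ifitm5 (10 and 23) were higher and Enpp1 (248 and 117) lower. Of 14 IGF axis genes, the protease Pappa (2.31) and Igfbp4 (1.76) were higher, and the receptor Igf1r (-1.39), its adaptor Irs1 (-1.23) and H19 (-2.48) lower. Of 18 matrix proteases and inhibitors, Mmp9 (9 and 25 counts) was higher beside Mmp13, and Timp2 (-1.02) lower. Both higher genes reached the minimum only in shMLL1. Of 22 NRF2 antioxidant genes, Slc7a11 (1.26) and Gsta1 (2.07) were higher and Gstm1 (-1.20) lower. Of 15 glucocorticoid targets, Lcn2 (2.42) and Angptl4 (1.08) were higher and Hsd11b1 (-1.29) and Glul (-1.12) lower. None of 22 Polycomb and H3K27 enzymes was over 2-fold in either direction (median -0.25). Of 5 skeletal muscle genes, Des, Acta1 and Tnni1 were lower (-2.71, -1.81 and -2.45). Of these 3 calls, 2 reached the minimum only in shControl, and 1 of the 3 muscle genes with 20 counts in both libraries was lower. Few markers of other cell types passed the count minimum, 1 epithelial, 2 haematopoietic, 3 endothelial and 4 neural, and of these Tek (-2.55), Tubb3 (-1.63) and S100b (-2.13) were lower and Vwf (1.63) higher. The only member among 6 sex chromosome genes differed by -0.05. Of 12 target genes named in the study, 5 were lower, Cebpa, Efnb1 (-2.32), Dlx5, Dhcr7 and Plpp3 (-1.15). The study named the 12 as examples of its targets in these C3H10T1/2 cells. Its targets were sites where knockdown of NFIB or MLL1 affected NFIB binding and histone H3 lysine 4 trimethylation. Their choice was thus not independent of the knockdown.

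Outside the lists, the protein-coding genes with the differences farthest beyond counting error included Oas3, Oas1g and Slfn2, given above, and the following. Ankrd1, a nuclear target of YAP and a stretch-responsive gene of muscle, had 74 counts in shControl, 192 in shNFIB and 5799 in shMLL1 (6.37, 6.04 to 6.73), yet 72 and 48 counts in shControl and shMLL1 at day 7. Ccn1 and Ccn2, other targets of YAP looked up after this value was seen, differed by -0.01 and 0.50. Slc40a1, which encodes the iron exporter ferroportin, had 26 and 1396 counts in shControl and shMLL1 (5.82, 5.27 to 6.45), and Plac8 had 19 and 1217 (6.07, 5.43 to 6.82). Sprr2k, of the small proline-rich family of the cornified envelope, had 201 and 5066 counts (4.74, 4.53 to 4.95). The receptors Gpr141 (25 and 941 counts) and Npffr1 (0 and 62, at least 21.9-fold higher) were also in the higher group. So were the phosphatase Ppef1 (23 and 936), the transcription cofactor Dach2 (1 and 108) and the uncharacterised Gm8332 (8 and 404). Dach2 also had 74 counts in shNFIB.

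Among the lower genes, Islr, a secreted leucine-rich protein of mesenchymal stroma, had 4375 counts in shControl, 815 in shNFIB and 29 in shMLL1 (-7.15, -7.74 to -6.63). The tetraspanin Tspan18 had 268, 16 and 5 counts (-5.63, -7.30 to -4.42). The lipolysis inhibitor G0s2 had 316, 0 and 4 counts, and the desmosomal p53 target Perp had 469, 2 and 9. Cnmd, the cartilage angiogenesis inhibitor chondromodulin, had 209, 2 and 1 counts (-7.46, -12.94 to -5.13), the cartilage matrilin Matn4 920, 210 and 21, and the nucleotidase Entpd3 169, 1 and 1. The kinase Bmx (85, 0 and 0 counts, at least 26.8-fold lower in shMLL1), the arginine deiminase Padi2 (90, 0 and 0, at least 28.3-fold) and 1500009L16Rik (135, 4 and 0, at least 42.5-fold) were undetected in shMLL1. Efhd1 (719, 26 and 15 counts) and Kctd12 (512, 109 and 13) had the same order. Cox20, an assembly factor of cytochrome c oxidase, differed from these, with 202 counts in shControl, 237 in shNFIB and 3 in shMLL1 (-5.93, -8.28 to -4.42).

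Some called genes also lay side by side in the genome. Runs of 3 or more protein-coding genes called in the same direction, neighbours among the genes compared, included the interferon-inducible blocks above. They also included the Ccl2, Ccl7 and Ccl8 cluster on chromosome 11 (82035571 to 82116799). How many such runs the share of called genes alone would give was not tested. Other runs were 7 serpin B protease inhibitor genes on chromosome 13 (32965209 to 33905708), and histone blocks of 5, 7 and 4 genes on the same chromosome. Of 10 serpin B genes with 20 counts in both libraries, 6 were higher and none lower, against 5.14% higher of all such genes. A further 4 called higher reached the minimum only in shMLL1. The summed level of the whole serpin B family was 1337 CPM in shControl, 2341 CPM in shNFIB and 2373 CPM in shMLL1 at day 0. The longest runs of lower genes were 2 blocks of 10 clustered protocadherins on chromosome 18, cell-surface adhesion genes. With 20 counts in both libraries, 8 of 11 Pcdhb genes and 5 of 7 Pcdhg genes were lower and none was higher, against 6.24% lower of all such genes, and 4 and 6 further genes called lower reached the minimum only in shControl. Pcdhb16 had 1274 and 476 counts in shControl and shMLL1 (-1.34, -1.49 to -1.19). The Pcdhg transcripts share their last exons, so their counts may not be independent. Over whole chromosomes the medians of protein-coding genes on the autosomes and X lay between -0.27 on chromosome 14 and 0.06 on chromosome 3.

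Called genes differed from the rest in exonic length and GC content, which the fold change did not use. Among protein-coding genes split into 5 equal bins by exonic length, the share over 2-fold higher declined from 11.3% in the bin of the shortest genes to 4.02% and 4.14% in those of the longest, and the median difference went from 0.14 to -0.25. Split by the GC content of the longest transcript, the share over 2-fold lower went from 4.64% in the bin with the least GC to 12.8% in that with the most, and the median from 0.07 to -0.30. In the day 7 pair the length trend ran the other way, from a median of -0.20 for the shortest genes to 0.13 in the longest, and the GC trend the same way, from 0.09 to -0.22. The day 0 shares include the genes that reached the count minimum only in the library where they were high. The part of this minimum and of library preparation in these trends was not tested. Taking off the median of genes in the same length and GC bin left a median of 1.34 for interferon-stimulated genes, 1.15 for chemokines and cytokines, -0.70 for sterol biosynthesis, -0.60 for Wnt signalling, -0.24 for collagens and -0.13 for MLL and COMPASS subunits. The same step left -0.30 for adipogenic regulators, whose median was -0.68, and 0.47 for bone matrix genes, whose median was 0.08.

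**Figure D4:**
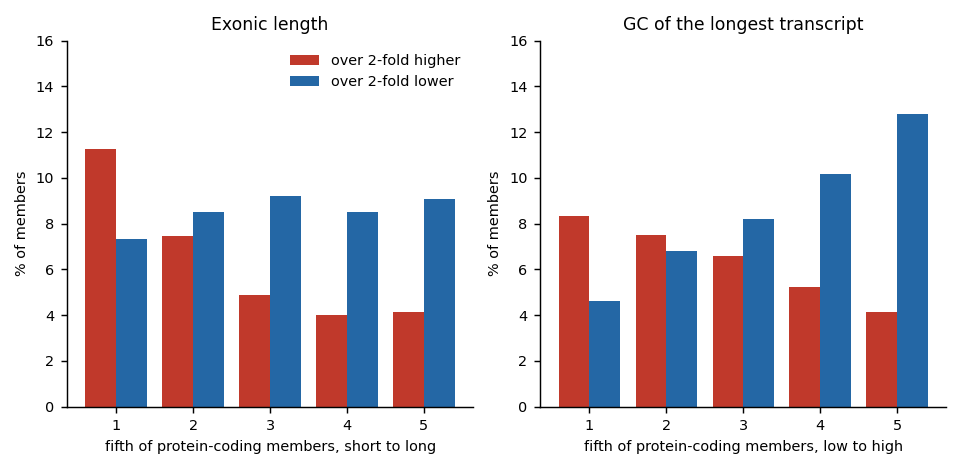
Share of protein-coding genes (y axis, %) over 2-fold higher (red) and over 2-fold lower (blue) in shMLL1 at day 0, by bin of exonic length (left) and of transcript GC content (right). The share of higher genes declines from 11.3% to 4.02% over the first 4 length bins and is 4.14% in the last, and the share of lower genes grows with GC content from 4.64% to 12.8%. The shares include genes that reached the count minimum only in the library where they were high.

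The day 7 pair, shMLL1 against shControl after 7 days of osteogenic medium, shares no library with the day 0 pair but comes from the same lines. Of the genes called higher at day 0, 912 had 20 or more counts there, 593 (65.0%) differed in the same direction, against 45.0% of all genes, and 244 (26.8%) exceeded 2-fold again, against 4.40% of all genes. Of the genes called lower, 1070 could be followed, 773 (72.2%) differed in the same direction, against 55.0% of all, and 268 exceeded 2-fold again, against 4.52%. The lists parted in this respect. The median of interferon-stimulated genes went from 1.36 to -0.08, with Isg15 at 32.0, 55.6 and 40.6 CPM in shControl, shNFIB and shMLL1 at day 7, and that of chemokines and cytokines from 1.55 to -0.73. The medians of adipogenic regulators (-0.68, or -0.30 after the length and GC step, and -0.65) and adipocyte genes (-0.56 and -0.47) were close at both times. Among interferon-inducible genes the Ifi200 block was an exception, with a day 7 median of 1.58. The summed day 7 level of this family was 561 CPM in shControl, 2091 CPM in shNFIB and 1696 CPM in shMLL1. Rsad2 (1, 13 and 94 counts in the same order) and Cmpk2 (2, 55 and 29) were further exceptions. The Ifi200 sum and Cmpk2 were thus highest in shNFIB at day 7.

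**Figure D5:**
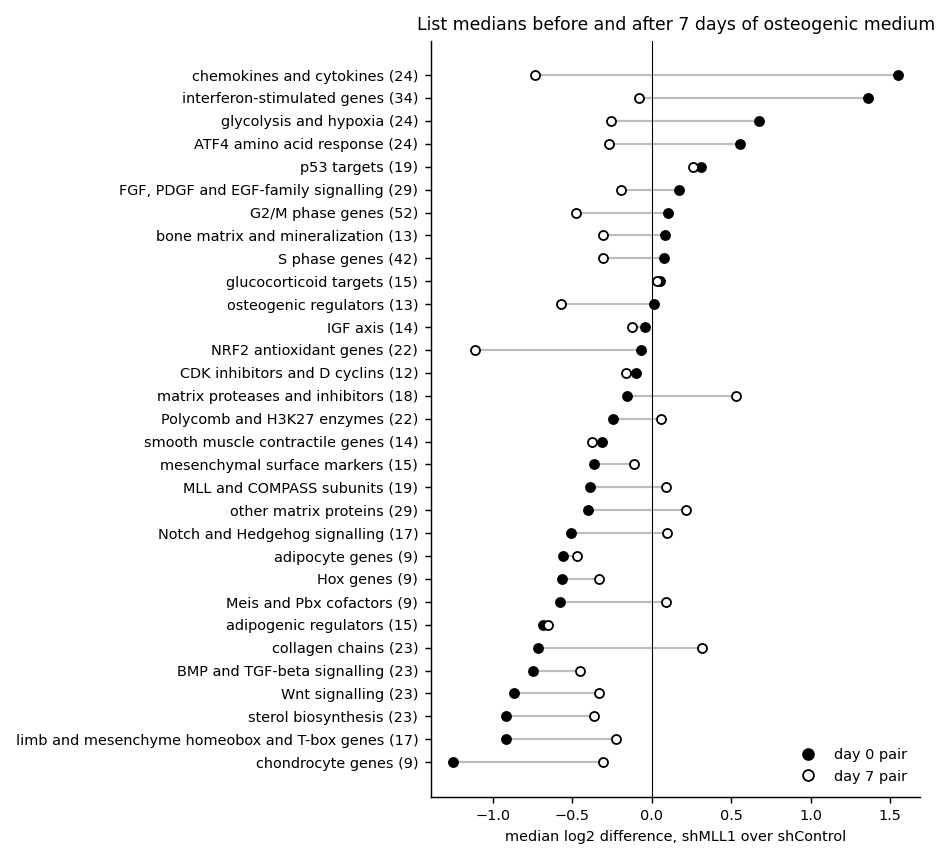
Median log2 difference of shMLL1 over shControl (x axis) for lists with 8 or more members (y axis, number of members in brackets), filled for the day 0 pair and open for the day 7 pair, over the genes that passed the count minimum at day 0. The chemokine and interferon medians move from 1.55 and 1.36 to -0.73 and -0.08, and that of adipogenic regulators from -0.68 to -0.65.

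A test is possible only when the days are pooled, which treats libraries of the same line at different days as its replicates, so that a difference seen at day 0 alone counts as spread. In edgeR's quasi-likelihood fit over all 6 libraries, with line and day as terms and 2 residual degrees of freedom, 2 of 16742 genes tested were higher (0.0119%) and 3 lower (0.0179%) in shMLL1 at an adjusted p under 0.05, and 1540 had an unadjusted p under 0.05. The estimated biological coefficient of variation was 0.281. These counts were unstable, since leaving out 1 library gave 10 to 375 higher and 32 to 345 lower genes, and the 4 libraries of shControl and shMLL1 alone gave 90 and 109. Tbx1, a T-box factor of pharyngeal development, had 585 and 30 counts in shControl and shMLL1 at day 0 and 1454 and 66 at day 7 (log2 difference -4.12 ± 0.35 SE, Benjamini-Hochberg adjusted p = 0.0295 in this edgeR quasi-likelihood fit). The other lower genes were the peptidase Naalad2 (-2.72 ± 0.23 SE) and Tspan18 (-5.20 ± 0.46 SE), and the higher genes included Gm2115 (3.03 ± 0.26 SE). Gm2115 was higher still in shNFIB. Its counts in shControl, shNFIB and shMLL1 were 54, 2136 and 400 at day 0 and 88, 2501 and 572 at day 7. Tspan18, Naalad2 and Gm2115 had the same adjusted p of 0.0295 by the same edgeR fit. Each of these 4 differed in the same direction in both pairs, but the pooled fit favours such genes, so this gives no further support. Kmt2a itself did not pass in this edgeR fit (-1.06 ± 0.23 SE, adjusted p = 0.154).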

How the data were processed

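RNA sequencing (paired reads, NovaSeq) was done by the authors on 6 libraries, 1 per line and day. Per the labels and the study's methods, the authors used Trimmomatic 0.39 for trimming and HISAT2 2.2.1 for alignment on the mm10 (GRCm38) genome, kept alignments of high mapping quality with SAMtools 1.12, removed PCR duplicates and deposited raw read counts per gene from HTSeq 0.11.1. Such filters lower the counts of genes with near-identical copies. The annotation release and strand setting are not given in the sources used here, so overlapping and antisense genes may share counts.

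Counts were scaled by TMM in edgeR 4.0.16 (R 4.3.3) over 6 libraries, whose totals for the day 0 pair were 32662704 and 30838517. Log2 differences used a prior count of 0.125, and a call meant over 2-fold. Exact Clopper-Pearson 95% counting intervals came from SciPy 1.17.1. With 1 library per group no p-value was computed for day 0. The fit over both days used edgeR's quasi-likelihood test with line and day as terms and Benjamini-Hochberg adjustment, and DESeq2 1.42.0 as an alternative. Libraries of the same line are separate samples, but no label says that they came from separate cultures of independent lines, so p-values measure only the spread between these samples. Scripts were tested on simulated data. Positions, types, lengths and GC content came from GENCODE release M21, and promoter windows from RefSeq (GRCm38.p6).

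The named genes were Kmt2a, the 15 protein-coding genes per direction with the interval farthest beyond no difference, up to 4 members per direction from each of 39 lists, 8 genes fixed by name, genes in runs of neighbours and genes past the threshold over both days. Any other gene in the text or a plot was chosen after its values were seen. The members and lists were chosen with earlier results of these data known, and the lists were written from general knowledge and the study's text. Alternatives changed the scaling, count minimum, prior count, fold, depth and gene type, and left out libraries. Some named genes are not reported here.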

Additional observations from a re-analysis of the deposited data

Results flagged for a closer look

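For 10 named genes the shMLL1 and shControl libraries differed by over 2-fold in opposite directions on day 0 and day 7, with 1 library per line and day, and this change between days was not tested. The chemokine Ccl2 differed by 2.26 at day 0 (3731 counts in shControl and 16917 in shMLL1) and by -2.19 at day 7 (4608 and 811), and Cxcl1 had 3322 and 9544 counts at day 0 and differed by -2.50 at day 7. The feedback genes of growth factor signalling Spry1 and Dusp4 differed by 2.43 and 2.13 at day 0 and by -2.17 and -1.44 at day 7. The stress-response genes Chac1 and Gadd45a differed by 1.35 and 2.05 at day 0 and by -1.97 and -1.10 at day 7. The AP-1 subunit Fosl1 differed by 1.02 and then -1.58, and the glutathione transferase Gsta1 by 2.07 and then -4.03, the latter on 43 and 2 counts in shControl and shMLL1 at day 7. In the other direction, the growth factor Hgf differed by -1.45 at day 0 and 1.34 at day 7, and the matrix protein Fmod by -1.82 (49 and 13 counts) and 1.52 (13 and 30 counts).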

How the results depend on the processing

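No paired analysis was possible because each line and day has 1 library, and the replicate numbers only name samples. At day 0, 1227 genes were higher and 1200 lower. The counts were 672 higher and 816 lower with 20 counts required in both libraries, 1375 and 1054 under DESeq2 size factors, 767 among protein-coding genes alone, 689 and 695 lower with the interval wholly beyond 2-fold, 645 and 532 at a fold over 3, and 5344 and 4307 with no count minimum. Apart from the size factors, these follow from which genes or folds each setting admits. Protein-coding genes alone made 42.7% of the calls higher, against 50.6% over all genes. Under 3 other scalings, a larger prior count and thinned counts, no gene called over 2-fold changed direction among 671 named genes. The largest shift of the median of all genes was 0.0737, so a scaling could not reverse a 2-fold difference and this gives no further support. DESeq2 size factors, which moved the median of all genes by 0.07, changed the side of 2-fold for 20 of them and the sign for 41, of which the largest reported log2 difference was 0.07 in size. TMM over the 2 libraries changed the sign of 9. The fit over both days was less stable. Its 2 higher and 3 lower genes became 90 and 109 with the 4 libraries of shControl and shMLL1 alone, 236 and 290 with all genes, and 169 and 232 with DESeq2's Wald test. Leaving out each of the 6 libraries in turn gave 10 to 375 higher and 32 to 345 lower genes. Every one of these omissions moved the counts by over 1.5 times: 35 and 42 without shControl day 0, 10 and 32 without shControl day 7, 95 and 120 without shNFIB day 0, 182 and 216 without shNFIB day 7, 198 and 181 without shMLL1 day 0, and 375 and 345 without shMLL1 day 7. The cause was not tested. Restricting the genes to an exonic length of 500 bases or more, chosen after seeing the data, gave 1118 higher and 1183 lower genes at day 0.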
